A study of Orestias ascotanensis with 42 samples.

Results

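Gills and skeletal muscle of the same animals were compared by small RNA sequencing in Orestias ascotanensis, a killifish of a high-altitude Andean salt pan. All 14 gill libraries and all 14 muscle libraries of the series entered the comparison, 28 of its 42 libraries, and each muscle library was set against the gill library of the same fish. The fish were wild-caught adults of no stated genotype or sex, without experimental treatment, taken with nets at a single site. There were 2 collections of 7 fish, one in July (treatment label winter) and one in January (treatment label summer), and tissue pieces were preserved individually, without pooling. Season here follows the treatment label, because every title says summer whichever the collection. Season and collection date are one split. The tissue names are those of the labels, which do not say which gill arch or which body muscle was cut.

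MicroRNAs (miRNAs) are short RNAs that guide silencing complexes to messenger RNAs, and many are made in few cell types. A gill holds epithelium, ion-transporting and mucous cells, cartilage, pillar and smooth muscle cells and much blood, and it is the main site of gas and ion exchange in fish. Skeletal muscle is built mostly of fused fibres, in which the miRNAs of the miR-133 and miR-206 families accompany differentiation in vertebrates, and fibres are reached by motor axons with their glia.

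Levels are reads per 1000000 (RPM) of a library's total, counting each group of names with counts matching within 5% once. Such a group is called a read profile here. Profiles that share only part of their reads each count in full in that total. That total was 197365 to 10447320 reads in gills (median 3268056) and 5184373 to 16767392 in muscle (median 10326977). The miR-10 family took 11.2% to 53.7% of the reads of a gill library (median 21.3%) and 85.6% to 93.7% of those of a muscle library (median 91.5%), with no overlap. Every other miRNA of muscle therefore shares the small remainder. Changes are log2(muscle/gills) from edgeR's quasi-likelihood test with a term for each fish, after TMM scaling, which sets the bulk of the miRNAs equal, and they are given ± SE with Benjamini-Hochberg adjusted p over all 512 names tested. With library totals in place of TMM the median change of all names shifted by -3.57. Those library totals add every name tested, so reads under several names, as those of miR-10b, count more than once, unlike in RPM. Summed over all names with reads, the medians were 8758167 in gills and 36074408 in muscle. Changes given by library totals are on that base and are not changes in RPM. On it a TMM change of about 3.57 corresponds to no change, and a smaller positive one to a negative or near-zero change. With totals counted outside the miR-10 family, each read profile once, the shift was -0.14. One library stood farthest apart. Gills summer 4 had the fewest reads, the highest miR-10 share of any gill library and the lowest TMM factor among gills (1.91 against a gill median of 3.58). Without that fish the names called higher went from 191 of 512 (37.3%) to 162 and those called lower from 167 (32.6%) to 247. Gills summer 2 came next in miR-10 share (41.2%) and in low TMM factor (2.53), with 2896359 reads. Without fish summer 2, 37.2% of names were higher and 29.8% lower.

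The tissues differed in most of the miRNAs measured. Of 512 names tested, 358 passed the threshold of 0.05 (69.9%). Against a null of at most 2-fold 243 passed, 26.2% of names higher and 21.3% lower. The names form 281 read profiles, of which 69.8% passed, with 91 higher in muscle (32.4%) and 105 lower (37.4%). With library totals alone, 18 profiles were higher (6.41%) and 252 lower (89.7%), and with totals outside the miR-10 family 29.2% were higher and 38.1% lower. All 18 were also among the 91, and the 105 lower profiles were lower under each of the 3 scalings. Of the 91 higher profiles, 62 were called lower by library totals and 11 did not pass there. RPM ranges of the tissues did not overlap in 45.6% of the profiles, 12 with muscle above (4.27%) and 116 with muscle below (41.3%). Without the fish of the 2 shallowest gill libraries (summer 4 and winter 2), 71 profiles (25.3%) were higher and 52.0% lower. Counted by names, 37.3% were higher and 32.6% lower with all fish. Leaving out summer 4 alone gave 31% and 47.2%, and leaving out winter 2 alone gave 36.3% and 31.8%. As these are whole tissues, fewer cells of a type and less RNA per cell cannot be told apart.

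**Figure D1:**
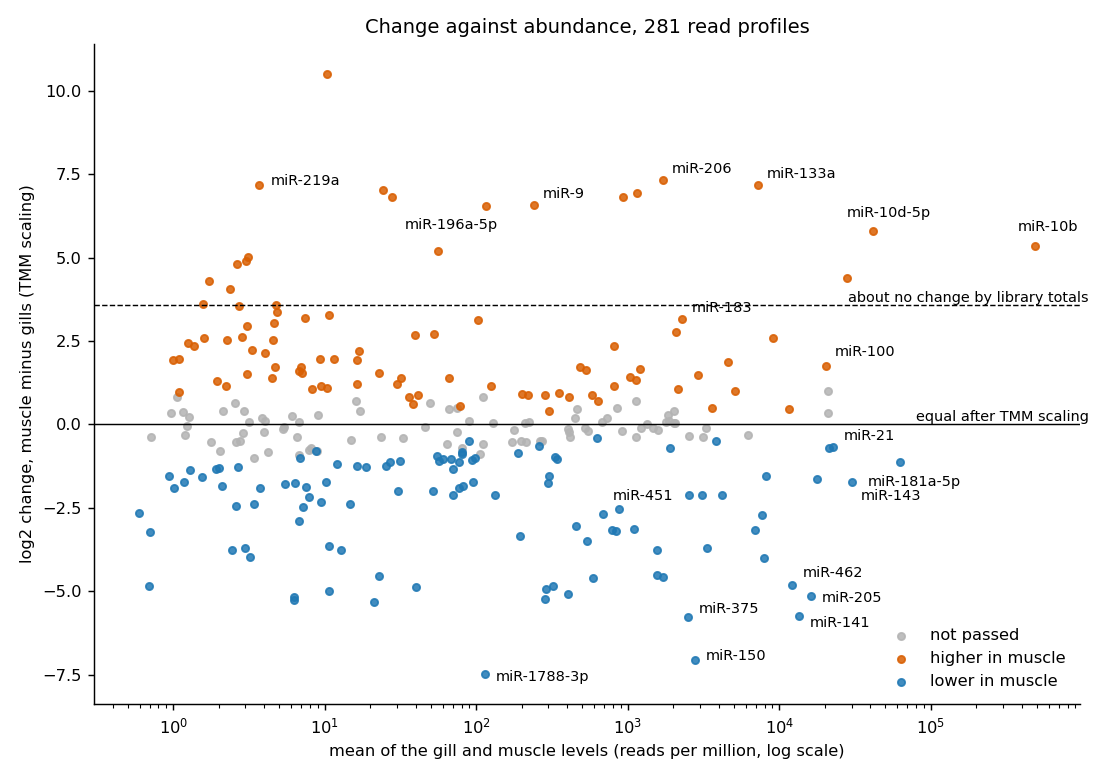
Each point is 1 of 281 read profiles, placed by the mean of its gill and muscle levels (RPM, log axis) and its log2 change, muscle minus gills, after TMM scaling; colours give the edgeR call at adjusted p under 0.05. The dashed line at 3.57 marks about no change by library totals, and miR-133a, miR-206, miR-9, miR-196a-5p, miR-10b and miR-10d-5p lie above it while the 105 lower profiles lie below the solid line.

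The labelled muscle carried miRNAs of muscle fibres, of the miR-133 and miR-206 families. miRNAs are grouped below in lists by cell type or role, each counting 1 profile per stem name, the more abundant arm, with stems read from the leading name of a profile. Of the tested members, 23 are lesser arms or relatives whose stem is also a further name of a more abundant profile. The 20 lists hold 174 members, of which 159 had enough reads to be tested and 15 did not. Of 6 tested members of a skeletal muscle list (miR-133, miR-206 and miR-499 families), 6 rose, and 4 also rose by library totals, against 91 of 281 profiles in all (32.4%) and 18 (6.41%) by totals. With stems judged by every name of a profile, 5 of 5 rose. miR-133a, which represses smooth muscle and proliferation genes in developing muscle, had 415 to 1383 (median 747) RPM in gills and 6434 to 27115 (median 12567) in muscle. Every muscle library stood above every gill library, and the change was 7.18 ± 0.22 (adjusted p = 2.73e-16). miR-206, which in mammals supports the repair of nerve-muscle contacts, had 93.6 to 374.9 (median 124.03) RPM in gills and 627 to 9721 (median 2581) in muscle. The ranges did not overlap, the change was 7.31 ± 0.38 (adjusted p = 3.39e-13), and by library totals it was still 3.75. miR-206 varied more among muscle libraries than miR-133a did. The profiles miR-133-3p and miR-133 (also named miR-133b), near-identical relatives of miR-133a that may share its reads, changed by 6.92 and 6.82. The 2 other list members, miR-133b-5p and miR-133c, had medians of at most 2.29 RPM in either tissue and changed by 4.30 and 3.60. Outside the list, miR-133-5p changed by 6.81 and miR-206-5p by 4.81. The list member named miR-1 was among those with too few reads to be tested. Reads of miR-1 from its 3p side are not analysed here.

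miR-499, which lies in an intron of a slow myosin heavy chain gene in mammals, behaved differently from miR-133a. Its level was 20.3 to 178 (median 112) RPM in gills and 40.1 to 273 (median 100.4) in muscle, and the ranges overlapped. By TMM the change was 3.12 ± 0.25 (adjusted p = 5.49e-10), while by library totals it was -0.45 (adjusted p = 0.168), so its share of those totals did not differ beyond the spread. By RPM muscle was above gills in 6 of 14 fish. In skin of the same fish its median was 496 RPM, above both. Skin also held miR-133a at a median of 8083 RPM and miR-206 at 1198, between the medians of gills and muscle for both.

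**Figure D2:**
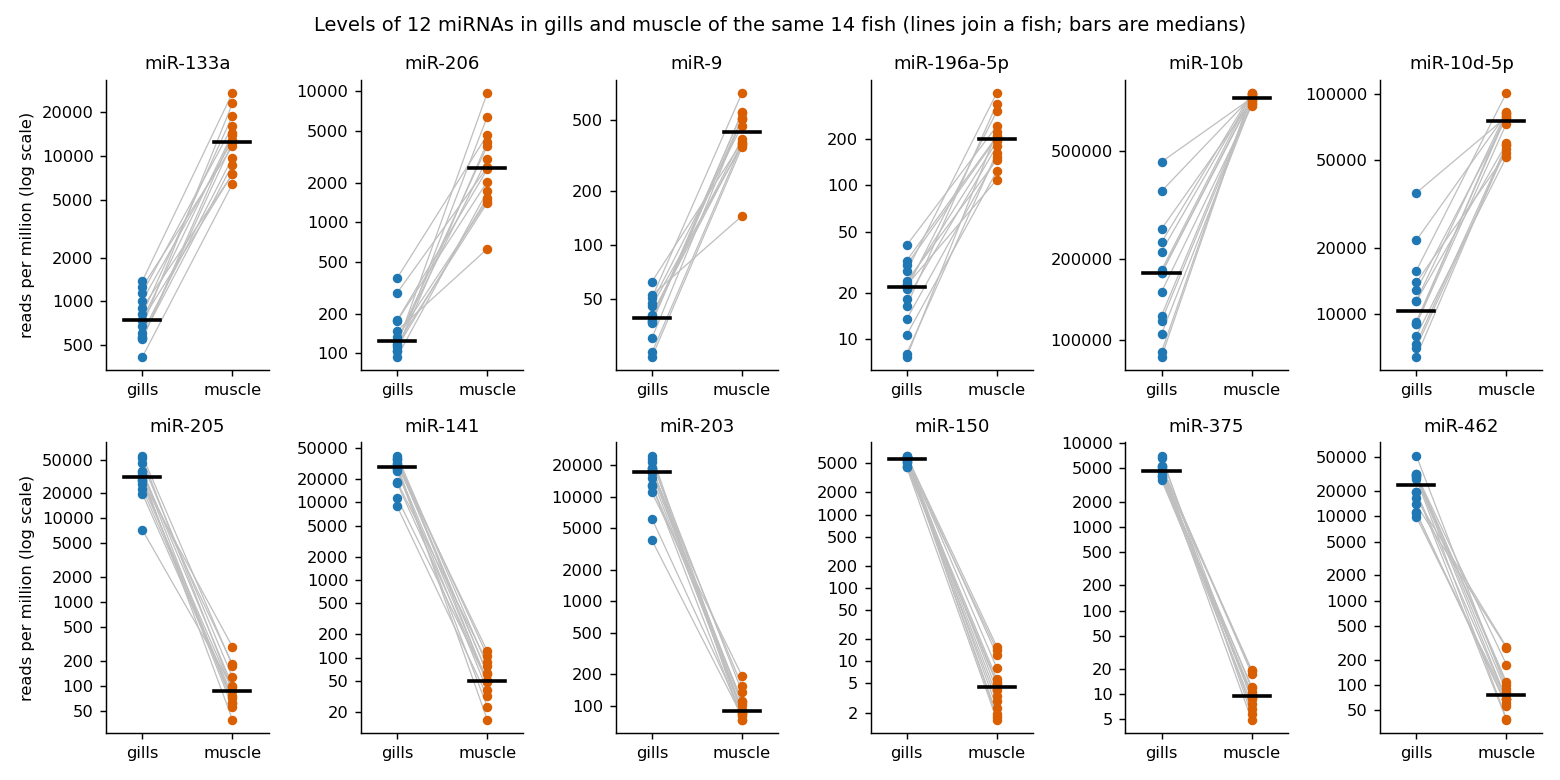
RPM (log axes, with a separate range for each panel) of 12 miRNAs in the gill library (blue) and the muscle library (orange) of the same fish, 14 fish, joined by lines, with bars at the medians. In all 12 panels the ranges of the tissues do not overlap, which also holds for 45.6% of all profiles. The upper 6 are higher in muscle and the lower 6 are higher in gills.

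Most miRNAs of nervous tissue were higher in muscle after TMM scaling, but not as a summed share of reads. Of 21 list members tested, 18 rose and 2 fell by TMM, against 32.4% of all profiles higher and 37.4% lower, while by library totals 4 rose and 13 fell, against 6.41% and 89.7%. With stems judged by every name, 14 of 17 rose by TMM. The list's summed share was 0.08% to 0.115% of reads in gills (median 0.0904%) and 0.0367% to 0.132% in muscle (median 0.0757%), with overlap. The list's median change was 2.63, against -0.20 for all profiles. miR-9, which marks neural progenitors and neurons in vertebrates, had 23.9 to 62.8 (median 39.4) RPM in gills and 146.1 to 707 (median 429.9) in muscle. The lowest muscle library was above the highest gill library, and the change was 6.57 ± 0.23 (adjusted p = 9.39e-16). miR-129, a brain-enriched miRNA, had 0 to 38.7 (median 23.6) RPM in gills and 62.3 to 131.5 (median 86.3) in muscle, without overlap, and changed by 5.21 ± 0.26 (adjusted p = 2.96e-13). miR-219a, known from myelinating oligodendrocytes in mammals, had 14 reads in all gill libraries together, with 8 of 14 at 0, and 930 reads in muscle. Its fitted change was 7.18, and muscle was above gills in 13 of 14 fish by RPM. With so few gill reads miR-219a met the count filter through muscle and could only rise, so it adds no support to the counts.

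The 4 neural profiles that also rose by library totals were miR-9, miR-129, miR-219a and miR-9a-3p, the other arm of a miR-9 precursor. Of the other 17 neural members, 13 fell by totals and 4 did not pass. miR-218a, found in motor neurons of mammals and fish, had 167 to 445 (median 380.1) RPM in gills and 19.9 to 178 (median 84) in muscle and changed by 0.88 ± 0.17 (adjusted p = 1.16e-04) after TMM but -2.68 by totals. miR-124-3p, the most neuron-restricted of the group, was scarce in both tissues, at medians of 10.6 RPM in gills and 2.39 in muscle. It changed by 1.71 ± 0.36 (adjusted p = 2.29e-04, edgeR) after TMM but -1.86 by totals. The 2 that fell were miR-137a and miR-124b, with 28 and 9 reads in all muscle libraries together, which met the count filter through gills. miR-132c did not pass. Without the 2 shallowest fish, 16 of 21 neural members rose, against 25.3% of all profiles.

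**Figure D3:**
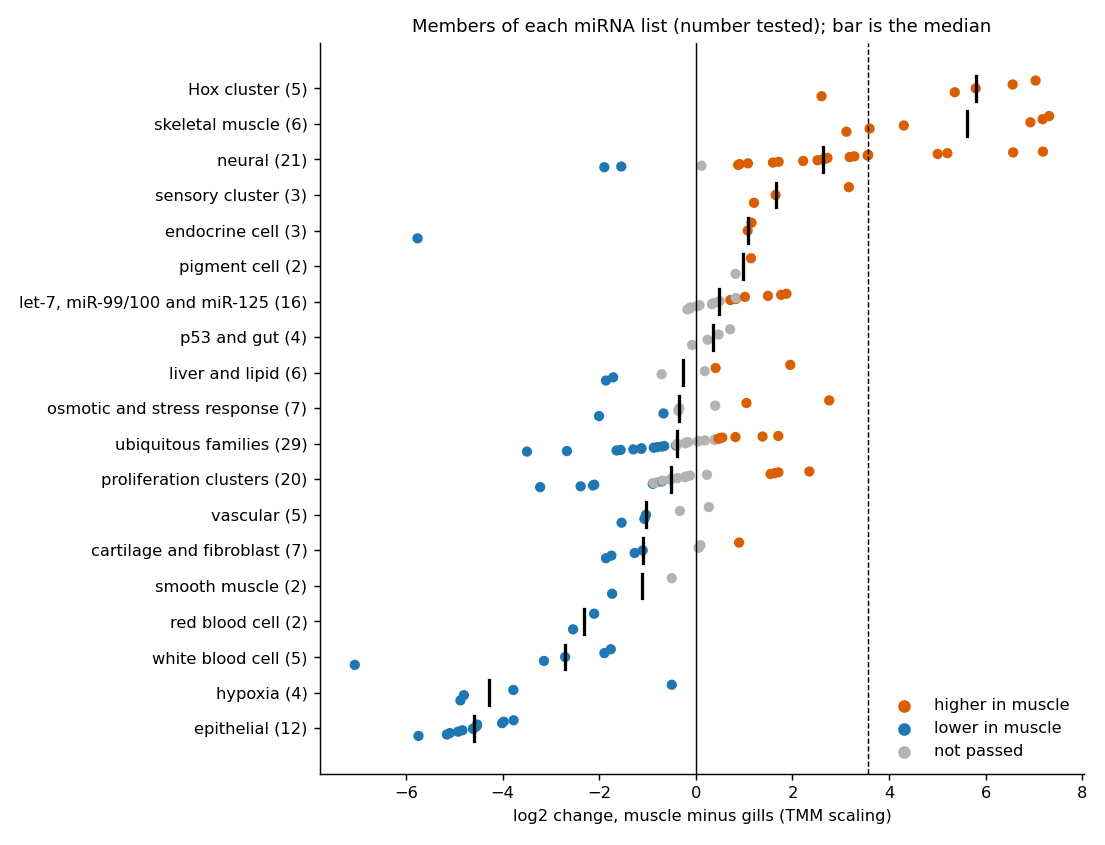
Log2 change, muscle minus gills after TMM scaling, of each tested member of 19 miRNA lists (number tested in brackets), coloured by the edgeR call, with a bar at each list's median. The Hox cluster and skeletal muscle lists sit farthest to the right and the epithelial list farthest to the left. The dashed line at 3.57 marks about no change by library totals.

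The miR-10 and miR-196 families are encoded within the Hox gene clusters and follow position along the body axis. Of 5 tested members of that list 5 rose after TMM, and by library totals 4 rose and 1, miR-10c, fell. Among all 281 profiles 32.4% rose after TMM, and by totals 6.41% rose and 89.7% fell. miR-10b, whose reads cannot be separated from those named miR-10a, had 86484 to 457442 (median 176926) RPM in gills and 737244 to 823919 (median 788725) in muscle. The levels in muscle lay in a narrow band and those in gills spread widely, and the change was 5.36 ± 0.29 (adjusted p = 9.25e-13), or 1.78 by totals. miR-10d-5p had 6401 to 35543 (median 10356) RPM in gills and 51639.9 to 100868 (median 75502) in muscle, without overlap, and changed by 5.79 ± 0.29 (adjusted p = 2.21e-13). The related profile miR-10d had 7908 to 42738 (median 14878) RPM in gills and 28816 to 54384 (median 36722) in muscle, with overlapping ranges. It changed by 4.38 ± 0.27 (adjusted p = 7.30e-12). Within a library miR-10d gave 0.0604 to 0.201 reads per miR-10b read in gills (median 0.0865) and 0.0365 to 0.0738 in muscle (median 0.046), and the ratio was lower in muscle in 14 of 14 fish. The ratio of miR-10d-5p to miR-10b moved the other way, higher in muscle in 12 of 14 fish. The changes of the family members were therefore unequal.

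The miR-196 profiles were low in gills in every fish. miR-196a-5p had 7.69 to 40.8 (median 21.9) RPM in gills and 108 to 395 (median 198) in muscle, and changed by 6.56 ± 0.26 (adjusted p = 5.97e-15). miR-196b had 1.1 to 5.56 (median 2.76) RPM in gills and 25.4 to 90.3 (median 44.1) in muscle. In both cases no gill library reached the lowest muscle library. miR-196b-5p had 9 reads over all gill libraries, with 9 of 14 at 0, and 3233 in muscle. Skin stood above muscle for miR-196a-5p, with a median of 1024 RPM.

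Epithelial miRNAs showed the opposite pattern. All 12 tested members of the list (miR-200, miR-141, miR-429, miR-203 and miR-205 families) fell, under each of the 3 scalings, against 105 of 281 profiles in all, and the list's median change was -4.59. By library totals alone 89.7% of all profiles fell. With stems judged by every name, 9 of 9 fell. The 12 include members with almost no reads in muscle, which met the count filter through gills and could only fall. Their summed share of reads was 2.67% to 11.3% in gills (median 8.78%) and 0.0168% to 0.0548% in muscle (median 0.0299%). miR-205, abundant in stratified epithelium, had 7256 to 55602 (median 30878) RPM in gills and 39.9 to 294 (median 88.8) in muscle. The lowest gill library, gills summer 4, was still far above the highest muscle library, and the change was -5.15 ± 0.29 (adjusted p = 1.49e-12). miR-141, whose reads are shared with miR-200a and which represses the ZEB regulators of epithelial identity, had 8854 to 39711 (median 28587) RPM in gills and 15.9 to 121 (median 49.8) in muscle, a change of -5.74 ± 0.23 (adjusted p = 8.12e-15). miR-203, which restrains keratinocyte stemness in mammals, had 3825 to 24708 (median 17113) RPM in gills and 73.1 to 192.1 (median 89.4) in muscle, a change of -4.01 ± 0.19 (adjusted p = 1.18e-13). No epithelial profile above 100 RPM in gills overlapped between the tissues. Of all profiles tested, 41.3% likewise had every muscle library below every gill library by RPM.

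Among the less abundant list members miR-200b changed by -4.53, miR-203b-3p by -4.57, miR-200c by -4.61, miR-429b by -5.09 and miR-429a by -4.92. Their gill medians ran from 552 RPM for miR-429a to 3658 RPM for miR-200b. The 4 scarcest members had gill medians of at most 49.9 RPM and muscle medians of at most 0.129 RPM. They changed by -4.83 to -3.77, and the direction of their change follows from the count filter, which they met through gills. Outside the list, the lesser arms miR-200b-5p and miR-203b-5p changed by -5.23 and -4.85. In skin, the other body surface, miR-205 had a median of 20057 RPM, close to gills, whereas miR-141 had 3966 and miR-203 had 3973.

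Blood cell miRNAs were lower in muscle. Of 5 white blood cell members (miR-142, miR-146, miR-150 and miR-155 families) 5 fell and of 2 red blood cell members (miR-144 and miR-451) 2 fell, under each of the 3 scalings. Of all profiles, 37.4% fell by TMM and 89.7% by library totals. miR-150, a miRNA of mature lymphocytes, had 4410.5 to 6338 (median 5659) RPM in gills, and 1.61 to 15.9 (median 4.48) in muscle. Its change of -7.06 ± 0.35 (adjusted p = 2.64e-13) was larger than that of any other white or red blood cell member. miR-146a-5p, which dampens innate immune signalling, had 3076 to 20148 (median 16129) RPM in gills and 76.8 to 1391 (median 225) in muscle and changed by -2.70 ± 0.21 (adjusted p = 3.69e-10). miR-142, made in all blood cells, changed by -3.14 and miR-155, induced in activated lymphocytes, by -1.89. The scarcest member, miR-146b-5p, had a muscle median of 0.343 RPM and met the count filter through its gill reads.

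Both red cell miRNAs were lower in muscle. miR-451, which is needed for red cell maturation in zebrafish, had 988 to 8540.5 (median 5149) RPM in gills and 49.5 to 306 (median 97.8) in muscle and changed by -2.10 ± 0.25 (adjusted p = 2.37e-07). miR-144, transcribed with miR-451, had 1204 to 3354 (median 1578) RPM in gills and 7.04 to 192.2 (median 33.1) in muscle and changed by -2.54 ± 0.23 (adjusted p = 3.82e-09). Neither red cell profile overlapped between the tissues, and 41.3% of all profiles likewise had every muscle library below every gill library by RPM. The labels name no perfusion step, and the part of blood in the gill levels was not tested.

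miRNAs of vessels and connective tissue were lower in muscle in part. Of 5 vascular members 3 fell and 2 did not pass by TMM, and all 5 fell by library totals. Among all 281 profiles 37.4% fell by TMM and 89.7% by library totals. Without the 2 shallowest fish 4 vascular members fell, against 52.0% of all profiles. miR-126-5p, an endothelial miRNA that supports vessel integrity, had 6851 to 15006 (median 11335) RPM in gills and 301 to 5888 (median 932) in muscle, and its TMM change was -0.33 ± 0.18 (adjusted p = 0.114). miR-143, a smooth muscle miRNA and the third most abundant gill profile, had 8928 to 83469 (median 66329) RPM in gills and 734 to 5731 (median 1727) in muscle. The gill libraries summer 4 and summer 2 lay far below the other 12, which began at 45483 RPM, and yet the ranges of the tissues did not overlap. The change was -1.73 ± 0.25 (adjusted p = 2.44e-06). Its cluster partner miR-145-5p had 86.1 to 881 (median 510.1) RPM in gills and 13.5 to 77.6 (median 39.5) in muscle, and the change of -0.50 ± 0.24 (adjusted p = 0.0685) did not pass. With totals outside the miR-10 family it passed as lower (-0.65, adjusted p = 0.0209, edgeR), and it also passed as lower without the 2 shallowest fish.

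Of 7 cartilage and fibroblast members, 4 fell, 1 rose and 2 did not pass after TMM, while by library totals all 7 fell. Without the 2 shallowest fish 6 fell and 1 rose. Among all profiles, 37.4% fell and 32.4% rose after TMM, 89.7% fell by totals, and without those fish 52.0% fell and 25.3% rose. miR-140-5p, a cartilage miRNA of vertebrates, had 136.8 to 1050.0 (median 595) RPM in gills and 6.07 to 104 (median 16.6) in muscle and changed by -1.75 ± 0.23 (adjusted p = 9.68e-07). miR-214, expressed in mesenchyme, rose by TMM, 0.90 ± 0.16 (adjusted p = 6.16e-05), but by totals was -2.67. miR-199 and miR-199a-5p, transcribed from the same locus as miR-214 in mammals, had TMM changes of 0.06 ± 0.13 (adjusted p = 0.709) and 0.09 ± 0.17 (adjusted p = 0.63), and both turned negative by totals, without the 2 shallowest fish and without fish summer 4 alone.

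Endocrine, sensory and pigment cell miRNAs were split. miR-375, known from pancreatic islets and neuroendocrine cells, had 3634 to 7116 (median 4726) RPM in gills and 4.95 to 19.6 (median 9.42) in muscle. No library of one tissue came near the other, and the change was -5.76 ± 0.28 (adjusted p = 1.44e-13). miR-7, a neuroendocrine miRNA with a near-identical profile miR-7b, was scarce, at medians of 12.5 RPM in gills and 2.39 in muscle, and its TMM change of 1.15 ± 0.46 (adjusted p = 0.0311) turned to -2.38 by totals, turned slightly negative among the fish labelled winter alone and did not pass without the 2 shallowest fish. miR-7b changed by 1.07, or -2.47 by totals, and did not pass without the 2 shallowest fish. With totals outside the miR-10 family neither passed, at adjusted p of 0.053 for miR-7 and 0.07 for miR-7b by edgeR.

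The sensory cluster miR-183, miR-96 and miR-182 is transcribed as one unit in hair cells and other sensory cells. After TMM 3 of 3 members rose, and by totals 2 fell, against 32.4% of all profiles higher after TMM and 89.7% lower by totals. miR-183 had 1211 to 4539 (median 1922) RPM in gills and 544 to 7663 (median 2131) in muscle, with overlapping ranges, and changed by 3.17 ± 0.21 (adjusted p = 2.39e-11), or -0.39 by totals (adjusted p = 0.152). By RPM muscle was above gills in 8 of 14 fish. miR-182 had 1203 to 3932 (median 1482) RPM in gills and 398 to 957 (median 551) in muscle and changed by 1.65 ± 0.23 (adjusted p = 1.64e-06), or -1.93 by totals. Within a library the reads of miR-183 per read of miR-182 rose from a gill median of 1.28 to a muscle median of 3.90, in 11 of 14 fish. miR-204, a pigment cell and eye miRNA, had 537 to 2366 (median 1290.2) RPM in gills and 172 to 831 (median 258) in muscle, a TMM change of 1.14 ± 0.24 (adjusted p = 2.39e-04) that turned to -2.40 by totals and did not pass without the 2 shallowest fish. The second pigment profile, miR-204b, had 94 reads in gills and 52 in muscle and did not pass.

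Among miRNAs linked to hypoxia, all 4 tested members fell under each scaling, against 37.4% of all profiles by TMM and 89.7% by library totals. miR-462 and miR-731, a teleost pair that responds to low oxygen and to interferon in fish cells, were far lower in muscle. miR-462 had 9867 to 52557 (median 23879.8) RPM in gills and 38.8 to 284 (median 75.8) in muscle, without overlap, and changed by -4.80 ± 0.32 (adjusted p = 3.08e-11). miR-731 had 1910.1 to 4987 (median 2885) RPM in gills and 11.5 to 73.1 (median 23.8) in muscle and changed by -3.78 ± 0.30 (adjusted p = 3.99e-10). miR-210, the hypoxia miRNA shared by vertebrates, had 40.5 to 302 (median 169) RPM in gills and 4.05 to 38.7 (median 11.3) in muscle and changed by only -0.50 ± 0.20 (adjusted p = 0.0326). miR-462b-5p, a relative of miR-462 that may share reads with it, changed by -4.87. It had a muscle median of 0.196 RPM and met the count filter through gills, so it could only fall.

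Of 7 members of the osmotic and stress list (miR-21 and miR-30 families), 2 rose, 2 fell and 3 did not pass after TMM, and all 7 fell by totals. All profiles together had 32.4% higher and 37.4% lower after TMM, and 89.7% lower by totals. miR-21, induced by injury in vertebrates, had 21863 to 62334 (median 43670.3) RPM in gills and 1638 to 5366 (median 2741) in muscle and changed by -0.67 ± 0.13 (adjusted p = 1.48e-04). The ranges did not overlap in RPM, and the TMM change was small beside those above. miR-30b, whose reads are shared with miR-30c, had 263 to 7460.1 (median 1991) RPM in gills and 547 to 4625 (median 1237) in muscle and changed by 2.76 ± 0.29 (adjusted p = 3.89e-08), or -0.80 by totals. miR-30d changed by 1.05 ± 0.17 (adjusted p = 9.83e-06), or -2.51 by totals. With stems judged by every name, 1 of 4 members of that list rose and 1 fell, with miR-30b among those left out.

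Calls among the broadly expressed families depended on the scaling. In the let-7, miR-99/100 and miR-125 list, 6 of 16 members rose, 10 did not pass and none fell after TMM, while by totals all 16 fell. Without the 2 shallowest fish 4 rose and 3 fell. The shares over all profiles were 32.4% higher and 37.4% lower after TMM, and 89.7% lower by totals. Without those fish the shares were 25.3% higher and 52.0% lower. let-7a, a brake on proliferation in differentiated cells, had 15229.5 to 49883 (median 35605) RPM in gills and 2679 to 12417 (median 4028) in muscle and a TMM change of 0.33 ± 0.26 (adjusted p = 0.258). miR-100, encoded near let-7 genes in many animals, had 18043 to 34485 (median 29356) RPM in gills and 3656 to 26256 (median 10572) in muscle and changed by 1.77 ± 0.27 (adjusted p = 5.82e-06), or -1.81 by totals.

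Among proliferation clusters (miR-17, miR-92 and relatives), 4 of 20 rose, 6 fell and 10 did not pass after TMM, all 20 fell by totals, and without the 2 shallowest fish 4 rose and 14 fell. miR-92, from clusters that promote cell division, had 912 to 12247 (median 8683) RPM in gills and 48.6 to 712 (median 183.5) in muscle and changed by -2.13 ± 0.31 (adjusted p = 3.81e-06), and its near-identical profile miR-92a by -2.10. The 4 that rose were miR-130, miR-130a-3p, miR-130b-3p and miR-18b. The first 2 of these had similar levels and may share reads, and miR-18b had medians of 1.56 RPM in gills and 0.893 in muscle. With stems judged by every name, 2 of 16 proliferation members rose and 6 fell, with miR-130b-3p and miR-18b among those left out. Of 29 members of ubiquitous families 6 rose, 12 fell and 11 did not pass after TMM, all 29 fell by totals, and without the 2 shallowest fish 1 rose and 19 fell. With totals outside the miR-10 family 3 rose and 12 fell, against 29.2% and 38.1% of all profiles. Beside both lists, all profiles had 32.4% higher and 37.4% lower after TMM, and 89.7% lower by totals. Without the 2 shallowest fish all profiles had 25.3% higher and 52.0% lower.

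In that last list miR-181a-5p, a regulator of lymphocyte signalling and the second most abundant gill profile, had 62515 to 222770.0 (median 104639) RPM in gills and 2311 to 17538 (median 5677) in muscle. The ranges did not overlap and the change was -1.13 ± 0.29 (adjusted p = 0.00154). miR-31, enriched in epithelium and skin, had 289 to 1327 (median 1130.2) RPM in gills and 6.32 to 18.97 (median 10.01) in muscle and changed by -3.50 ± 0.25 (adjusted p = 7.23e-11). miR-27c, miR-27b and miR-26 changed by -0.70 ± 0.19 (adjusted p = 0.0024), -1.64 ± 0.17 (adjusted p = 2.39e-08) and 0.47 ± 0.14 (adjusted p = 0.00465), the last turning to -3.10 by totals and not passing with totals outside the miR-10 family (0.33, adjusted p = 0.065, edgeR).

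For liver and lipid miRNAs 2 of 6 rose, 2 fell and 2 did not pass after TMM, and all 6 fell by totals. Without the 2 shallowest fish none of 6 rose and 3 fell, so that both miR-107 and miR-122, a liver miRNA, lost their calls. Across all profiles 32.4% rose and 37.4% fell after TMM, 89.7% fell by totals, and without those fish 25.3% rose and 52.0% fell. miR-103 had a change of 0.18 ± 0.16 (adjusted p = 0.325) and miR-107 one of 0.41 ± 0.18 (adjusted p = 0.0481), and the latter turned negative by totals, among the fish labelled winter and without the 2 shallowest fish, and did not pass with totals outside the miR-10 family (adjusted p = 0.247). None of 4 members of the p53 and gut list passed after TMM, and all 4 fell by totals. miR-192, an intestinal and liver miRNA, had 36.4 to 9039.5 (median 619.9) RPM in gills, a wide spread, against 23.7 to 304 (median 104) in muscle. Its TMM change was 0.71 ± 0.73 (adjusted p = 0.394). miR-34a, which p53 induces, had 10.1 to 245 (median 112) RPM in gills and 0.675 to 31.8 (median 16.9) in muscle, with a TMM change of 0.47 ± 0.40 (adjusted p = 0.305). The gonad miRNA miR-202 was below the level tested in both tissues.

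miR-2188-5p, a fish miRNA, was among the 10 most abundant profiles of both tissues. It had 3126 to 131269 (median 26900.3) RPM in gills and 1868 to 13231 (median 5613) in muscle, with overlapping ranges, and its change of 0.99 ± 0.44 (adjusted p = 0.0512) did not pass. The range among gill libraries was the wider one. miR-10c, the fourth miR-10 profile, had 3851 to 18920.1 (median 9669) RPM in gills and 4027 to 12478 (median 6464) in muscle and changed by 2.60 ± 0.23 (adjusted p = 1.76e-09), or -0.98 by totals. miR-1788-3p had the largest fall among profiles above 100 RPM in either tissue and of one sign in every fish. It had 30.4 to 419 (median 235) RPM in gills and 31 reads in all muscle libraries together, with 7 of 14 at 0, and changed by -7.48 ± 0.50 (adjusted p = 2.82e-11).

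Ratios of 2 miRNAs within a library do not depend on scaling. Reads of miR-133a per read of miR-205 ran from 0.0106 to 0.0573 in gills (median 0.025) and from 39.6 to 360 in muscle (median 138.2). Reads of miR-206 per read of miR-141 ran from 0.00266 to 0.033 in gills (median 0.00438) and from 12.04 to 402 in muscle (median 53.3). Both ratios were higher in muscle in 14 of 14 fish, and no gill library came near a muscle library. Reads of miR-10b per read of miR-21 ran from 1.81 to 20.9 in gills (median 3.67) and from 137.4 to 487 in muscle (median 292). Reads of miR-133a per read of miR-143 ran from 0.00757 to 0.0522 in gills and from 3.98 to 16.8 in muscle. For each of these 4 ratios the ranges of the tissues did not overlap. That separation follows from the RPM ranges above. In each pair the first miRNA was higher in every muscle library and the second in every gill library. The ratios are therefore no separate support.

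The difference between the tissues depended on the season label for few miRNAs. The interaction of tissue and season label passed for 6 of 512 names (1.17%), in 3 read profiles, and 43 names had an unadjusted p under 0.05. The 6 names were miR-100, miR-100-5p, miR-100a-5p, miR-100b-5p, miR-99 and miR-99b, all of the miR-99/100 family, whose members differ by few bases and may share reads. miR-100 had a median of 26219 RPM in gills labelled winter and 31426 in gills labelled summer, against 5928 and 20219 in muscle. In muscle the levels were 3656 to 10312 RPM in winter fish and 10833 to 26256 in summer fish, which do not overlap, while the gill ranges of 21994 to 30364 and 18043 to 34485 overlap. The log2 ratio of muscle to gills was -0.32 to 1.60 in winter fish and 2.32 to 2.94 in summer fish. The interaction was 1.76 ± 0.31 by edgeR (adjusted p = 0.00381), and by library totals it was 1.55 (adjusted p = 0.0553).

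miR-99 had the same form. Its median was 3526 RPM in winter gills and 4843 in summer gills, against 788 and 2263 in winter and summer muscle. The interaction was 1.36 ± 0.31 by edgeR (adjusted p = 0.0268), and it did not pass by library totals (adjusted p = 0.226) or in 7 of the 14 fits that left out 1 fish (winter 2 and 6, summer 1, 2, 3, 5 and 7). miR-100b-5p differed in the gills instead. It had 203.4 to 509 RPM in winter gills (median 312) and 5.07 to 259 in summer gills (median 23.95), against medians of 23.96 and 20.8 in winter and summer muscle. The value of 259 was that of gills summer 2, and the other 6 summer gill libraries had at most 26.1 RPM. The interaction was 3.55 ± 0.56 by edgeR (adjusted p = 0.00245). It was 3.28 by library totals (adjusted p = 0.047), and miR-100 and miR-100b-5p passed in all 14 fits that left out 1 fish. With no term for the fish miR-100b-5p did not pass, while the other 5 names did. Season, collection date and different fish cannot be told apart.

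**Figure D4:**
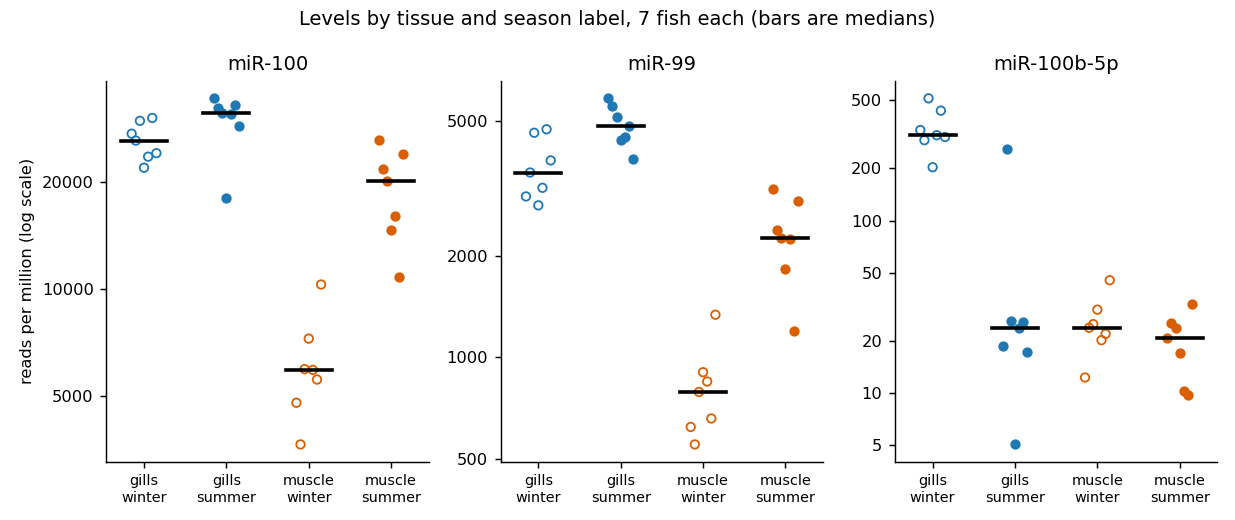
RPM (log axes) of miR-100, miR-99 and miR-100b-5p in gills and muscle by season label, 7 fish in each column, with bars at the medians; open points are winter and filled points summer. miR-100 and miR-99 have their lowest median in winter muscle, and miR-100b-5p is higher in winter gills, with 1 summer gill library at 259 RPM.

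A precursor gives a 5p and a 3p arm, and the ratio of the arms within a library does not depend on scaling either. Of 17 precursors with at least 20 reads on average for each arm in each tissue, 7 differed between gills and muscle (41.2%) by a two-sided exact sign-flip permutation test over 14 fish with Benjamini-Hochberg adjustment, 4 toward 3p in muscle (23.5%) and 3 toward 5p (17.6%). For mir-193 the log2 ratio of 3p to 5p reads had a median of 0.33 in gills and -2.45 in muscle, a mean difference of -2.65 ± 0.28 (SE), lower in muscle in 13 of 14 fish (adjusted p = 0.00208, exact permutation). Gills summer 4 had no reads of either arm of mir-193, so its ratio of 0 came from the added 0.5 alone. Without the 2 shallowest fish the mir-193 difference was -2.63 (adjusted p = 0.0083, exact permutation over 12 fish). For mir-460 the medians were 0.39 and -2.56, with a difference of -2.65 ± 0.45, lower in muscle in 13 of 14 fish (adjusted p = 0.00208, exact permutation). By the medians, the arms of both were about equal in gills and the 5p arm led in muscle, but the ranges of the tissues overlapped. For mir-193 the ratio ran from -1.92 to 1.67 in gills and -3.70 to 0.38 in muscle. For mir-460 it ran from -2.81 to 0.86 in gills and -4.30 to -1.41 in muscle. The lesser arm had on average 21 reads per muscle library for mir-193 and 22.9 for mir-460. The third precursor of that direction, mir-21b, changed by -1.31 ± 0.29, and its 5p reads are those of miR-21.

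Toward 3p in muscle, mir-455, a cartilage miRNA of vertebrates, changed by 0.99 ± 0.34 and did not pass without the 2 shallowest fish (adjusted p = 0.111, exact permutation over 12 fish). mir-203 changed by 0.83 ± 0.21, mir-214 by 0.83 ± 0.19 and mir-222b, a vascular miRNA, by 0.82 ± 0.25. These 3 were higher in muscle in 11, 12 and 13 of 14 fish. For mir-203 the 3p arm led in both tissues, at log2 ratios of 4.18 to 5.86 in gills and 4.28 to 6.73 in muscle, with overlap. Muscle had 4.28 to 5.51 in winter fish and 5.32 to 6.73 in summer fish, against 4.18 to 4.78 and 4.36 to 5.86 in gills. The fish in which mir-203 was not higher in muscle were winter 1, 5 and 7. Dependence of arm ratios on the season label was not tested. The 5p arm of mir-203 had on average 23.5 reads per muscle library. The other 10 precursors, among them mir-199, mir-148, mir-126 and mir-142, did not pass.

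**Figure D5:**
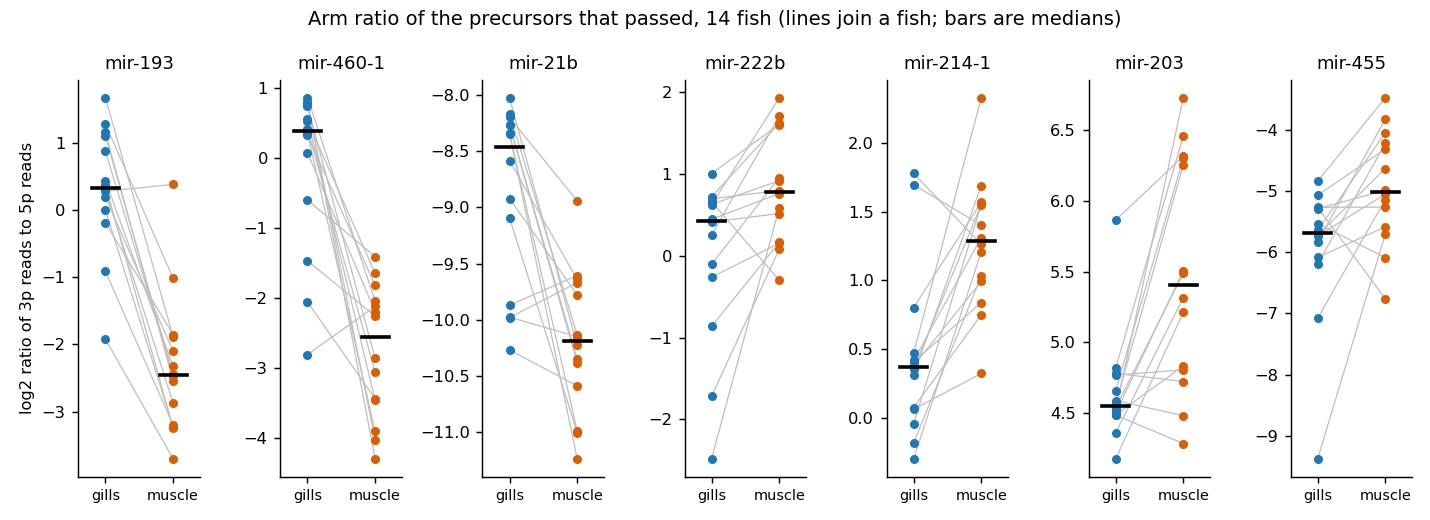
Log2 ratio of 3p to 5p reads in gills (blue) and muscle (orange) of the same 14 fish for the 7 precursors that passed, joined by fish, with bars at the medians and a separate axis range in each panel. mir-193 and mir-460 fall by 2.65 on average and the 4 precursors on the right rise by 0.82 to 0.99.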

How the data were processed

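Per the labels' protocols, small RNA was cut from gels, made into libraries with the TruSeq Small RNA kit and sequenced, and read 1 alone was used. The authors deposited 1 table per library of whole-number read counts per mature miRNA and precursor, not normalized, per the file headers. A further deposited column holds CPM, per the file headers, whose base is the sum of every entry in the table; no test used it. Aligner, miRNA reference and filters: not given in the sources used here. Names carry 13 species prefixes, and a read counts under every entry it matches. Prefixes were removed and, for each of 1342 names, the entry with the highest count over the libraries was kept. Names with counts matching within 5% formed read profiles (329), each reported under its most abundant name, so letters and arms of near-identical miRNAs are uncertain.

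Fish were paired because both tissues came from one animal, per the design text. Deviations of the 2 tissues of a fish had a median correlation of 0.0697, above 0.1 in 6 of 14 fish. No 2 libraries of a group agreed within counting error over 84 pairs (lowest chi-square per degree of freedom 30.1). The tissue test was that of edgeR 4.0.16, run in R 4.3.3 on the counts (TMM, filterByExpr with a minimum count of 10 and total of 15, fish and tissue as terms, quasi-likelihood F test), with SE as the log2 change over the square root of F. Arm ratios used log2 with 0.5 added to each count. In the paired tests p-values measure the spread over fish of the difference between the tissues. Variation between pieces and libraries of a tissue is part of that spread. Reads carry no molecular identifiers.

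Profiles are named as the 12 highest and 12 lowest changes with one sign in all 14 fish and at least 100 RPM in the higher tissue, the first members of each list, the 10 most abundant of each tissue, and those that passed the arm and season tests. Other members, chosen after their values were seen, are named where a count needed them. All miRNA lists and comparisons were chosen with earlier results of these data known. Alternatives were no fish term, other scalings, DESeq2 1.42.0, no count filter, 1 name per profile, all libraries, subsets of fish, a null of 2-fold, another choice of arm in the lists and other arm settings. Families without a read profile are not analysed here.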

Additional observations from a re-analysis of the deposited data

Results flagged for a closer look

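One fish stood apart in the log2 ratio of muscle to gills for miR-205. In fish winter 3 it was -2.64 after TMM scaling, while the other 6 winter fish had -6.05 to -5.11. Winter 3 had the highest TMM factor among gills (4.56) and the lowest among winter muscle libraries (0.22). Both factors move its ratio up, and RPM values do not carry them. That fish's muscle library had 294 RPM of miR-205, the highest of the 14 muscle libraries, and its gill library had 27825 RPM. It was 1 of 48 groups of 7 fish examined, and chance alone marks about 1 group in 20.

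The tissue difference of 6 names changed with the season label, by edgeR's interaction test with Benjamini-Hochberg adjustment. The change, summer minus winter, was 1.76 for miR-100, 1.68 for miR-100-5p and 1.76 for miR-100a-5p, which share reads. It was 3.55 for miR-100b-5p and 1.36 for both miR-99 and miR-99b, which also share reads. Gills summer 2 held miR-100b-5p at 259 RPM, inside the winter gill range, and no explanation was tested.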

How the results depend on the processing

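Of 512 names, 358 passed. Without the fish as a block (no replicate block) 378 passed (38.7% of names higher and 35.2% lower), and the arm test passed for 8 precursors in place of 7. The interaction then passed for 8 names in place of 6, with 5 of those 6 among them and miR-100b-5p lost. With library totals only, 8.79% of names were higher and 85.7% lower, against 37.3% and 32.6%, and the interaction passed for 1. With 1 name per read profile, 200 passed, 35% higher and 35.7% lower. Without the fish of the 2 shallowest gill libraries 49.5% were lower and 28.9% higher. With the fish labelled winter alone 26.6% were higher, and against a null of at most 2-fold 21.3% were lower. DESeq2 called 11 interactions, and with an arm minimum of 100 reads 2 of 5 precursors tested passed, against 7 of 17. Judging the arm of a stem by every name of a profile, chosen after seeing the data, left 136 of 159 tested list members. Leaving out each fish in turn gave 338 to 409 calls, 31% to 38.6% higher, 29.7% to 47.2% lower and 4 to 17 interactions, with 409, 31%, 47.2% and 17 all without fish summer 4.

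By library totals only, the direction turned for miR-183 (-0.39), miR-499 (-0.45), miR-30b (-0.80), let-7a (-3.23), miR-2188-5p (-2.54), miR-100 (-1.81), miR-10c (-0.98), miR-128 (-2.67), miR-126a (-3.31), miR-7 (-2.38), miR-182 (-1.93), miR-199 (-3.51), miR-199a-5p (-3.47), miR-204 (-2.40), miR-204b (-2.71), miR-30d (-2.51), miR-192 (-2.94), miR-34a (-3.07), miR-103 (-3.39) and miR-107 (-3.15); by construction, that scaling moves every name down by about 3.57. Those totals count a read under each of its names, unlike RPM. By RPM miR-183 had medians of 1922 in gills and 2131 in muscle and was higher in muscle in 8 of 14 fish. With winter fish alone miR-7 was -0.042 and miR-107 -0.10. Without the 2 shallowest fish miR-199 was -0.37, miR-199a-5p -0.49 and miR-107 -0.12. Leaving out each fish in turn gave -0.38 to 0.096 for miR-199, -0.45 to 0.176 for miR-199a-5p and -0.095 to 0.483 for miR-107, each lowest without fish summer 4. The cause was not tested. Depth limits scarce profiles most in gills summer 4, which had 197365 reads.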
